A study of Homo sapiens with 8 samples.

Results

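The 10 heat shock chaperone genes described here were HSPA1A, HSPA1B, HSPA8, HSPH1, HSP90AA1, DNAJB1, HSPB1, HSPD1, HSPE1 and BAG3, taken by name from the 36779 genes listed in the deposited count tables. All 10 were measured in each of the 8 libraries and passed the filter on low counts (at least 1 CPM, a count scaled to library size, in at least 2 libraries), as did 17869 genes in all. The libraries were ribosome-depleted total RNA of PC3 and DU145, prostate cancer cell lines first grown from metastases. In each line, 1 library came from cells given a plasmid with circ0004592 (the arm titled STK3), 1 from cells given a plasmid with circ0003553 (the arm titled RCAN3), and 2 from cells given the negative control plasmid, 1 per arm. Both inserts are circular RNAs (circRNAs). Cells of all 8 libraries were transfected, and no untransfected cells were analysed here. A circRNA plasmid was thus sequenced once in each line, and the labels do not say whether the libraries came from separate cultures. The p-values below therefore rest on the spread between libraries, which may be technical. In the main fit this spread came from the 2 controls of each line alone, and a circRNA library was assumed to vary as they do.

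Heat shock proteins are molecular chaperones, which bind unfolded or newly made proteins and help them to fold, to stay soluble or to be passed on for degradation. Transcription factors of the HSF family, with HSF1 as the main one in stressed cells, bind heat shock elements, which are inverted repeats of the unit GAA, and raise the transcription of many of these genes. In the HSP70 cycle a J-domain protein such as DNAJB1 delivers the client and stimulates ATP hydrolysis, and nucleotide exchange factors such as HSPH1 and BAG3 let the client go. HSP90 acts on partly folded kinases and receptors. HSPB1 (HSP27) holds unfolding proteins in a soluble state, and HSPD1 (HSP60) with its lid HSPE1 (HSP10) folds proteins inside mitochondria.

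The start regions of 5 of the members with differences reported below are shown: both inducible HSP70 genes, the constitutive HSP70 gene HSPA8, the J-domain gene DNAJB1 and BAG3. HSPD1, HSPH1, HSPB1 and HSP90AA1 also had differences and are not shown. Each run covers 250 bases before to 50 bases after an annotated start in RefSeq on GRCh38.p14, written 5′ to 3′ on the strand of the gene. The windows are chr6:31815293-31815592 (plus strand) for HSPA1A, chr6:31827488-31827787 (plus strand) for HSPA1B, chr11:123062087-123062386 (minus strand) for HSPA8, chr19:14518348-14518647 (minus strand) for DNAJB1 and chr10:119651130-119651429 (plus strand) for BAG3. Capitals mark matches to GAANNTTC or TTCNNGAA, pairs of inverted heat shock units, each of which reads the same on both strands, and overlapping matches run together.
HSPA1A: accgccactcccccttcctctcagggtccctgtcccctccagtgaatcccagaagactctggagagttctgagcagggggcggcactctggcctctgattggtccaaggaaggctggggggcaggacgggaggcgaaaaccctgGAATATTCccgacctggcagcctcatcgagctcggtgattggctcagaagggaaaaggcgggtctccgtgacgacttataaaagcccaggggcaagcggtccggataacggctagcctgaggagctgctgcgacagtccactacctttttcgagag
HSPA1B: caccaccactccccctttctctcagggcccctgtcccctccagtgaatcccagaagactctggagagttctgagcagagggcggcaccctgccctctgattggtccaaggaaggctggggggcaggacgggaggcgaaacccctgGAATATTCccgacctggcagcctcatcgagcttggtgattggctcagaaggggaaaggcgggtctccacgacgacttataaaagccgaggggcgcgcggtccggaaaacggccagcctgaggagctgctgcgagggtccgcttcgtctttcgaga
HSPA8: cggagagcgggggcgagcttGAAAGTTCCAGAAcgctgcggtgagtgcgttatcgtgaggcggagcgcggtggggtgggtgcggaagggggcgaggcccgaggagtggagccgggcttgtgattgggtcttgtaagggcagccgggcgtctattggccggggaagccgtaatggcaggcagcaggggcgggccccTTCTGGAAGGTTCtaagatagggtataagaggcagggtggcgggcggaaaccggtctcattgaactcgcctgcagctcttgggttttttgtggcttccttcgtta
DNAJB1: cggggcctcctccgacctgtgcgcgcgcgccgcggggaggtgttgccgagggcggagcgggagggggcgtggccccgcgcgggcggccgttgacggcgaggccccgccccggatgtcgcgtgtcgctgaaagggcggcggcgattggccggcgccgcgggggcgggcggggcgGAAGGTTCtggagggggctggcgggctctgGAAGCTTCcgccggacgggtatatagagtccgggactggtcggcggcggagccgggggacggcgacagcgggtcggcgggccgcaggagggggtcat
BAG3: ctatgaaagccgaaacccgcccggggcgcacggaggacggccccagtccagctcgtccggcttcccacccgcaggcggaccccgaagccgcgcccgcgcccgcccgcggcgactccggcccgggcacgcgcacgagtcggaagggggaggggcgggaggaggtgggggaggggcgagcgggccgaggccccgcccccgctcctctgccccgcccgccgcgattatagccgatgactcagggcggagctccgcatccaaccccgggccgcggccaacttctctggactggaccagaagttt

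Such a pair stood in 8 of the 14 RefSeq start windows of the 10 genes, and 7 of the 10 genes had at least 1 window with it. Of all 35116 windows of this length in the same table, 13.5% held one. Matches extended by a further inverted unit at the same spacing were found for HSPA8, HSP90AA1 and HSPD1, against 0.49% of all windows. HSPA1A and HSPA1B each held 1 match, whose first base lay 106 and 105 bases before the start, and 277 of the 300 bases of their windows were identical. HSPA8 held 4 overlapping matches in 2 places. The DNAJB1 window shown held 2 matches, and the other start windows of DNAJB1 held 1 and 0. The windows of HSPH1, HSPE1 and BAG3 had no match, which says only that these letters were not in these windows.

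The libraries held between 33444940 and 49926342 counts, and the 10 genes between 1186 and 367112 counts each per library. Between 64.9% and 66.1% of the counts from 1 to 20 were even, so fragments appear to have been counted by both of their reads, and counting errors computed per fragment lay between 0.233% and 4.11%. The 2 control libraries of a line differed by 2.13 (PC3) and 2.34 (DU145) chi-square units per gene, more than the 1 that sampling noise gives, so they were kept as separate libraries. For the 10 genes they differed by at most 0.14 on the log2 scale in PC3 (BAG3) and 0.13 in DU145 (HSPE1). CTNNA1, which PC3 is known to lack, was at 3.88 to 4.65 CPM in PC3 and at 391 to 427 CPM in DU145. The epithelial markers KRT8, KRT18, EPCAM and CDH1 summed to 538 to 612 CPM in PC3 and 2912 to 3802 CPM in DU145, with CDH1 at 0.736 to 1.17 CPM in PC3. Counts of the gene RCAN3 were 44.6 CPM in PC3 with circ0003553, against 33.0 and 29.5 CPM in the PC3 controls, and 36.9 CPM in DU145 with circ0003553, against 20.8 and 18.2 CPM in the DU145 controls. Those of STK3 were 19.5 CPM in PC3 with circ0004592, against 7.65 and 9.13 CPM in the PC3 controls, and 33.8 CPM in DU145 with circ0004592, against 28.7 and 26.1 CPM in the DU145 controls. The rise of STK3 in DU145 did not pass the test (log2 fold change 0.30, edgeR adjusted p = 0.0746), and gene counts do not separate circular from linear transcripts.

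The chaperones did not change in 1 direction, and BAG3 and HSPA8 changed most differently between the lines. In PC3, BAG3 was lowered to 0.588 of its control level with circ0004592 and 0.569 with circ0003553, and HSPA8 and DNAJB1 also fell with either circRNA. In DU145, HSPA8 rose with either circRNA, 1.66-fold with circ0004592 and 1.37-fold with circ0003553, and HSPA1A and HSPA1B rose 1.70-fold and 1.64-fold with circ0004592. HSPB1 fell and HSPD1 rose in DU145 with circ0003553. Each gene was tested with edgeR's quasi-likelihood test, in which both controls of a line formed 1 group, and p-values were adjusted over all 17869 genes.

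In PC3, 4 of the 10 genes passed an adjusted p of 0.05 with circ0004592, all 4 lower, where 24.8% of all tested genes passed in either direction and 11.7% were lower. With circ0003553 in PC3, 3 passed as lower and 1 as higher, where 28.2% of all genes passed, 12.6% lower and 15.6% higher. In DU145, 5 of the 10 passed with circ0004592, all 5 higher, beside 9.89% of all genes, 5.24% higher. The 5 include HSPA1A and HSPA1B, which are largely identical in sequence and may not be separate observations. With circ0003553 in DU145, 3 were higher and 1 lower, beside 10.5% of all genes, 4.24% higher and 6.3% lower. With limma on the RPKM in place of edgeR on the counts, 0 members passed in DU145 with either circRNA, and 0 of all genes did (3879 with circ0004592 and 3447 with circ0003553 at an unadjusted p under 0.05). The median log2 fold change of the 10 genes was -0.03 (circ0004592) and -0.04 (circ0003553) in PC3, and 0.20 (circ0004592) and 0.15 (circ0003553) in DU145, while the median over all tested genes lay within 0.011 of 0 in every comparison. The comparisons of a line share their control libraries, so the values for circ0004592 and circ0003553 are not independent of each other. A lower share of cells with a transcript and less of it in each cell cannot be told apart in these bulk libraries.

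**Figure D1:**
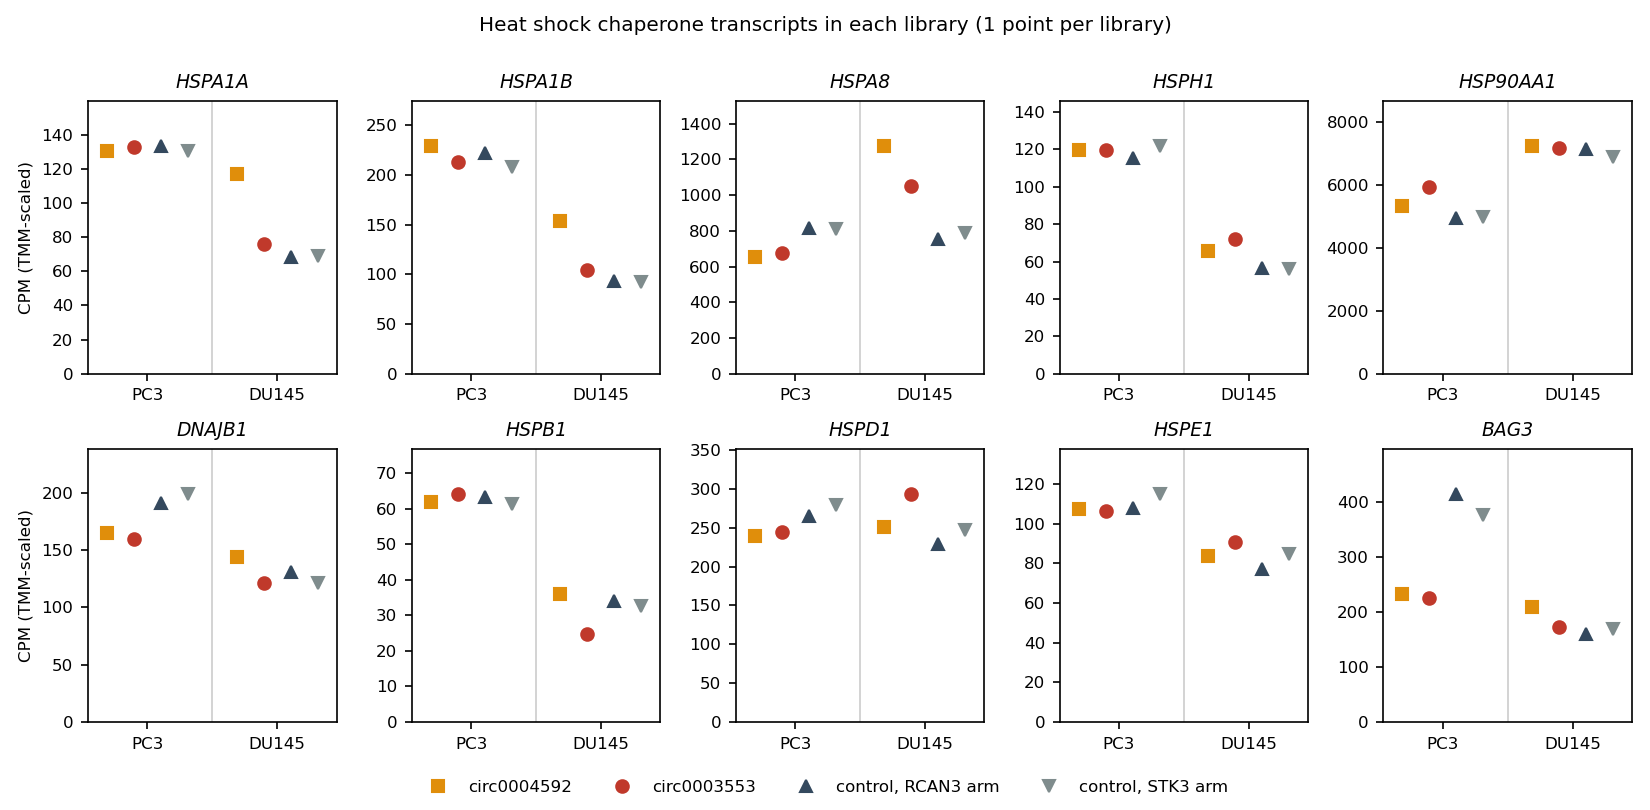
CPM (counts scaled to the TMM library size) of the 10 genes in each of the 8 libraries, 1 point per library, with PC3 on the left and DU145 on the right of each panel and every axis starting at 0. BAG3 stands at 232 and 225 CPM in the PC3 circRNA libraries, below both PC3 controls (414 and 377 CPM), and HSPA8 lies below both controls in PC3 and above both in DU145.

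HSPA1A and HSPA1B encode the stress-inducible HSP70 and lie side by side on chromosome 6, at chr6:31815464-31817946 and chr6:31827735-31830255 (hg38, plus strand). Of the 2334 windows of 150 bases, the read length, in the HSPA1A transcript of GENCODE v29, 67.1% are identical to a stretch of HSPA1B, so the counting could split their reads and each value alone is uncertain. HSPA1A had 130.3 CPM with circ0004592 and 133 CPM with circ0003553 in PC3, against 133 and 130.4 CPM in the PC3 controls. In DU145 it had 117 CPM with circ0004592 and 75.9 CPM with circ0003553, against 68.6 and 68.8 CPM in the controls. The PC3 libraries overlapped, whereas both DU145 circRNA libraries were above both controls, and the one with circ0004592 stood well above all others of its line. HSPA1B had 229 and 213 CPM with circ0004592 and circ0003553 in PC3, against 222 and 208 CPM in the controls. In DU145 it had 153 and 104 CPM with circ0004592 and circ0003553, against 93.7 and 92.7 CPM in the controls. With circ0004592 in DU145 the log2 fold change was 0.76 ± 0.06 (SE) for HSPA1A (adjusted p = 3.06e-07) and 0.72 ± 0.06 for HSPA1B (adjusted p = 7.11e-07). With circ0003553 in DU145 it was 0.14 for HSPA1A (adjusted p = 0.141) and 0.16 for HSPA1B (adjusted p = 0.0909), and neither passed. Without the RCAN3-arm or the STK3-arm control of PC3, that adjusted p of HSPA1B was 0.0447 or 0.0443. The summed CPM of both genes, which does not depend on how reads were split between them, was 269.9 with circ0004592 and 180.4 with circ0003553 in DU145, against 162 and 161 in the controls, and in PC3 359 and 346, against 356 and 338. HSPA1B took 61.5% to 63.7% of the pair's counts in PC3 and 56.8% to 57.9% in DU145.

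HSPA8 (HSC70, chr11:123057489-123063230, minus strand) is the constitutive HSP70 of the cytosol, present in unstressed cells and needed for clathrin uncoating and chaperone-mediated autophagy. It had 655 CPM with circ0004592 and 673 CPM with circ0003553 in PC3, against 816 and 811 CPM in the controls. HSPA8 in DU145 had 1274 CPM with circ0004592 and 1053 CPM with circ0003553, against 753 and 786 CPM in the controls. Groups did not overlap in either line, and the circRNA libraries were the low ones in PC3 and the high ones in DU145. The log2 fold changes were -0.31 ± 0.05 with circ0004592 (adjusted p = 9.35e-05) and -0.27 ± 0.05 with circ0003553 (adjusted p = 0.000328) in PC3. In DU145 they were 0.73 ± 0.05 with circ0004592 (adjusted p = 4.53e-08) and 0.45 ± 0.05 with circ0003553 (adjusted p = 1.17e-05). With either circRNA, HSPA8 thus passed in opposite directions in PC3 and DU145. Its exons overlap the small nucleolar RNA genes SNORD14C and SNORD14D, which had at most 0.497 CPM.

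DNAJB1 (HSP40, chr19:14514770-14529770, minus strand), the J-domain partner of inducible HSP70, had 165 and 159 CPM with circ0004592 and circ0003553 in PC3, against 192 and 199 CPM in the controls. DNAJB1 in DU145 had 144 and 121 CPM with circ0004592 and circ0003553, against 131 and 122 CPM in the controls. Both PC3 circRNA libraries were below both controls, and the DU145 groups overlapped. It fell in PC3 with circ0004592 (log2 fold change -0.24 ± 0.06, adjusted p = 0.00671) and with circ0003553 (-0.29 ± 0.06, adjusted p = 0.00142). With limma on RPKM the adjusted p with circ0004592 in PC3 was 0.0573. In DU145 the log2 fold change with circ0004592 was 0.19 (adjusted p = 0.0607), which passed when 1 of 3 controls was left out (adjusted p = 0.0482 without the RCAN3-arm control of DU145, and 0.0142 and 0.0145 without the RCAN3-arm and STK3-arm control of PC3). The value with circ0004592 in DU145 also passed with all controls kept, with DESeq2's size factors in edgeR (adjusted p = 0.0381) and without the filter (adjusted p = 0.0494). With circ0003553 in DU145 the log2 fold change was -0.06 (adjusted p = 0.574). A stretch of 228 exon bases lies opposite TECR, a fatty acid elongation gene with 19.4 to 33.5 CPM, and whether the counting used strand is not given in the sources used here.

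BAG3 (chr10:119651370-119677819, plus strand) binds HSP70 through its BAG domain and couples it to small heat shock proteins and to the selective autophagy of damaged proteins. It had 232 CPM with circ0004592 and 225 CPM with circ0003553 in PC3, against 414 and 377 CPM in the controls. BAG3 in DU145 had 209 CPM with circ0004592 and 172 CPM with circ0003553, against 159.6 and 169.8 CPM in the controls. The PC3 circRNA libraries were far below the controls and close to each other, and in DU145 both were above both controls, the one with circ0003553 by little. The fall in PC3 was -0.77 ± 0.06 on the log2 scale with circ0004592 (adjusted p = 2.26e-08) and -0.81 ± 0.06 with circ0003553 (adjusted p = 8.95e-09). In DU145 BAG3 rose with circ0004592 (log2 fold change 0.34 ± 0.06, adjusted p = 0.00195), while with circ0003553 the value was 0.06 (adjusted p = 0.607). The fall in PC3 passed in each of the alternatives run, with values between -0.91 and -0.76 with circ0003553 and between -0.86 and -0.71 with circ0004592.

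HSPH1 (HSP105, chr13:31134974-31162388, minus strand), an exchange factor of the HSP110 family, had 119.8 and 119.6 CPM with circ0004592 and circ0003553 in PC3, against 115 and 122 CPM in the controls. The DU145 libraries had 65.6 and 72.3 CPM with circ0004592 and circ0003553, against 56.8 and 56.1 CPM in the controls. The PC3 groups overlapped and the DU145 groups did not. In DU145 it rose with circ0003553 (log2 fold change 0.36 ± 0.06, adjusted p = 0.00136) and with circ0004592 (0.22 ± 0.07, adjusted p = 0.0452). The call with circ0004592 was lost without either DU145 control, with an adjusted p of 0.105 without the RCAN3-arm library and 0.148 without the STK3-arm library, and with DESeq2 (adjusted p = 0.0890).

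HSP90AA1 (chr14:102080738-102139699, minus strand) encodes the inducible cytosolic HSP90 and was by far the most abundant member, with 67.9% to 81.7% of the summed CPM of the 10 genes in each library. It had 5322 CPM with circ0004592 and 5914 CPM with circ0003553 in PC3, against 4932 and 4973 CPM in the controls. In DU145 it had 7219.5 CPM with circ0004592 and 7156 CPM with circ0003553, against 7144 and 6871 CPM in the controls. Both circRNA libraries were above both controls in each line, in DU145 by less than the controls differed from each other. It rose in PC3 with circ0003553 (log2 fold change 0.26 ± 0.04, adjusted p = 9.36e-05), which did not pass with limma on RPKM (0.20, adjusted p = 0.0883), and the value with circ0004592 was 0.10 (adjusted p = 0.0777). In DU145 the values were 0.04 (circ0004592, adjusted p = 0.583) and 0.03 (circ0003553, adjusted p = 0.721). The other 9 genes summed to 1940 CPM with circ0004592 and 1938 CPM with circ0003553 in PC3, against 2329 and 2303 CPM in the controls. In DU145 these 9 summed to 2333 and 2007 CPM, against 1603 and 1660 CPM in the controls. HSPA8 and BAG3 made up most of the lower sum in PC3, and HSPA8 most of the higher sum in DU145. HSPA1A, HSPA1B, HSPH1 and HSPB1 overlapped with the controls in PC3, so the sums do not describe each of the 9.

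HSPB1 (HSP27, chr7:76302544-76304295, plus strand), a small heat shock protein that also binds actin, had 62.0 and 64.1 CPM with circ0004592 and circ0003553 in PC3, against 63.4 and 61.5 CPM in the controls. The DU145 libraries had 36.1 CPM with circ0004592 and 24.7 CPM with circ0003553, against 34.1 and 32.7 CPM in the controls. The PC3 libraries overlapped, and in DU145 the library with circ0003553 was the lowest. HSPB1 fell in DU145 with circ0003553 (log2 fold change -0.44 ± 0.08, adjusted p = 0.00124), the single member that fell in this line. With circ0004592 in DU145 the value was 0.11 (adjusted p = 0.412).

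HSPD1 and HSPE1 encode the mitochondrial chaperonin HSP60 and its co-chaperonin HSP10 and lie head to head on chromosome 2 (chr2:197486581-197516737, minus strand, and chr2:197499994-197503457, plus strand), where their exons overlap by 281 bases on opposite strands. HSPD1 had 239 and 244 CPM with circ0004592 and circ0003553 in PC3, against 265 and 279.7 CPM in the controls. HSPD1 in DU145 had 251 and 293 CPM with circ0004592 and circ0003553, against 228 and 247 CPM in the controls. The circRNA libraries were below both controls in PC3 and above both in DU145, with circ0003553 the highest there and circ0004592 close to the nearer control. HSPD1 fell in PC3 with circ0004592 (log2 fold change -0.19 ± 0.06, adjusted p = 0.0272), which did not pass with limma on RPKM (adjusted p = 0.0886). Its fall in PC3 with circ0003553 did not pass in the main fit. With all controls kept, that fall passed with DESeq2's size factors in edgeR (adjusted p = 0.0364) and without the filter (adjusted p = 0.00515). With circ0003553 in PC3 the value was -0.16 (adjusted p = 0.0566), and the adjusted p was 0.00717 without the RCAN3-arm control of PC3 and 0.0318 and 0.0288 without the RCAN3-arm and STK3-arm control of DU145. In DU145 it rose with circ0003553 (0.30 ± 0.06, adjusted p = 0.00291), which became 0.25 with an adjusted p of 0.0505 without the RCAN3-arm control of DU145.

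HSPE1 had 107.6 and 106.6 CPM with circ0004592 and circ0003553 in PC3, against 108.1 and 114.8 CPM in the controls, and 83.9 and 90.8 CPM in DU145, against 77.4 and 84.9 CPM in the controls. Its log2 fold change passed the test with neither circRNA in either line (adjusted p between 0.139 and 0.738). The PC3 circRNA libraries were just below the controls and the DU145 groups overlapped. The gene HSPE1-MOB4, a read-through from HSPE1 into the next gene, was listed at 78.5 to 114 CPM, close to the 77.4 to 115 CPM of HSPE1. By the coordinates deposited with the counts, the exons of HSPE1-MOB4 and HSPE1 share 192 bases. Whether the counting split reads between them or counted shared reads in both is not given in the sources used here, so the value of HSPE1 alone is uncertain.

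**Figure D2:**
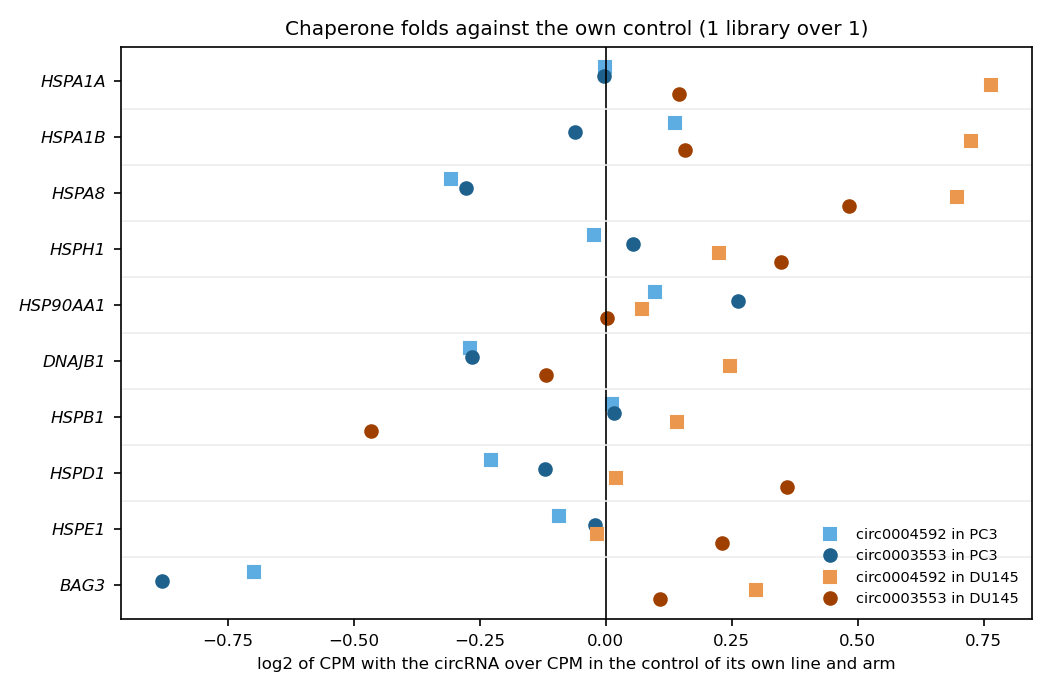
Log2 of the CPM with a circRNA over the CPM in the control library of the same line and arm, 1 point per gene, line and circRNA, each 1 library over 1 and so without an error bar. BAG3 is at -0.70 (circ0004592) and -0.88 (circ0003553) in PC3, and HSPA8 is left of 0 in PC3 and right of 0 in DU145.

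Set against the control library of its own arm alone, BAG3 in PC3 was 0.617 of the control with circ0004592 and 0.543 with circ0003553. HSPA8 in PC3 was 0.808 and 0.825 of its own control with circ0004592 and circ0003553, and in DU145 1.62 and 1.40 of it. HSPA1A in DU145 was 1.70 of its own control with circ0004592 and 1.11 with circ0003553. The smallest of these differences, that of HSPA1A with circ0003553, was 0.15 on the log2 scale, where the 2 controls of a line differed by at most 0.14 among the 10 genes. That change of HSPA1A did not pass the test against both controls. Own-control values of the genes not named here lay on both sides of 0.14 in size. For HSPD1 in PC3 they were -0.12 with circ0003553 and -0.23 with circ0004592.

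Whether the response differed between the lines was tested as the fold change in PC3 minus that in DU145. With circ0004592, 6 of the 10 genes differed, all 6 with a lower fold change in PC3 than in DU145. Of all genes, 19.5% differed and 8.91% had the lower fold change in PC3. They were BAG3 (-1.11 ± 0.09), HSPA8 (-1.04 ± 0.07), HSPA1A (-0.78 ± 0.08), HSPA1B (-0.63 ± 0.08), DNAJB1 (-0.43 ± 0.09) and HSPD1 (-0.27 ± 0.09, adjusted p = 0.0334). HSPA1A and HSPA1B may not be separate observations among these 6. With circ0003553, 6 differed, beside 22.6% of all genes. BAG3 (-0.88 ± 0.09), HSPA8 (-0.73 ± 0.07), HSPD1 (-0.46 ± 0.08) and HSPH1 (-0.34 ± 0.09) had a lower fold change in PC3 than in DU145, as did 9.24% of all genes. HSPB1 (0.47 ± 0.10) and HSP90AA1 (0.23 ± 0.06) had a higher fold change in PC3 than in DU145, as did 13.4% of all genes. Without the RCAN3-arm control of DU145, the difference of HSPD1 with circ0004592 no longer passed (adjusted p = 0.0812), nor did that of HSP90AA1 with circ0003553 (adjusted p = 0.0673). Without the RCAN3-arm control of PC3, that of HSP90AA1 was likewise not past the threshold (adjusted p = 0.0508). The same omission added calls for DNAJB1 (adjusted p = 0.0161) and HSPE1 (adjusted p = 0.0169) with circ0003553 and for HSPH1 (adjusted p = 0.0499) with circ0004592. Calls with circ0003553 were also added, again by adjusted p, for HSPA1B without the STK3-arm control of PC3 (0.0268), for DNAJB1 without the RCAN3-arm control of DU145 (0.0305) and for HSPE1 without the STK3-arm control of DU145 (0.0354). With limma on RPKM, the differences of DNAJB1 (adjusted p = 0.0629) and HSPD1 (adjusted p = 0.154) with circ0004592 and of HSPH1 (adjusted p = 0.0523) and HSP90AA1 (adjusted p = 0.347) with circ0003553 did not pass, and that of HSPH1 was also lost with DESeq2 (adjusted p = 0.0522). In edgeR without the filter, those of DNAJB1 (adjusted p = 0.0257) and HSPE1 (adjusted p = 0.0456) with circ0003553 passed.

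**Figure D3:**
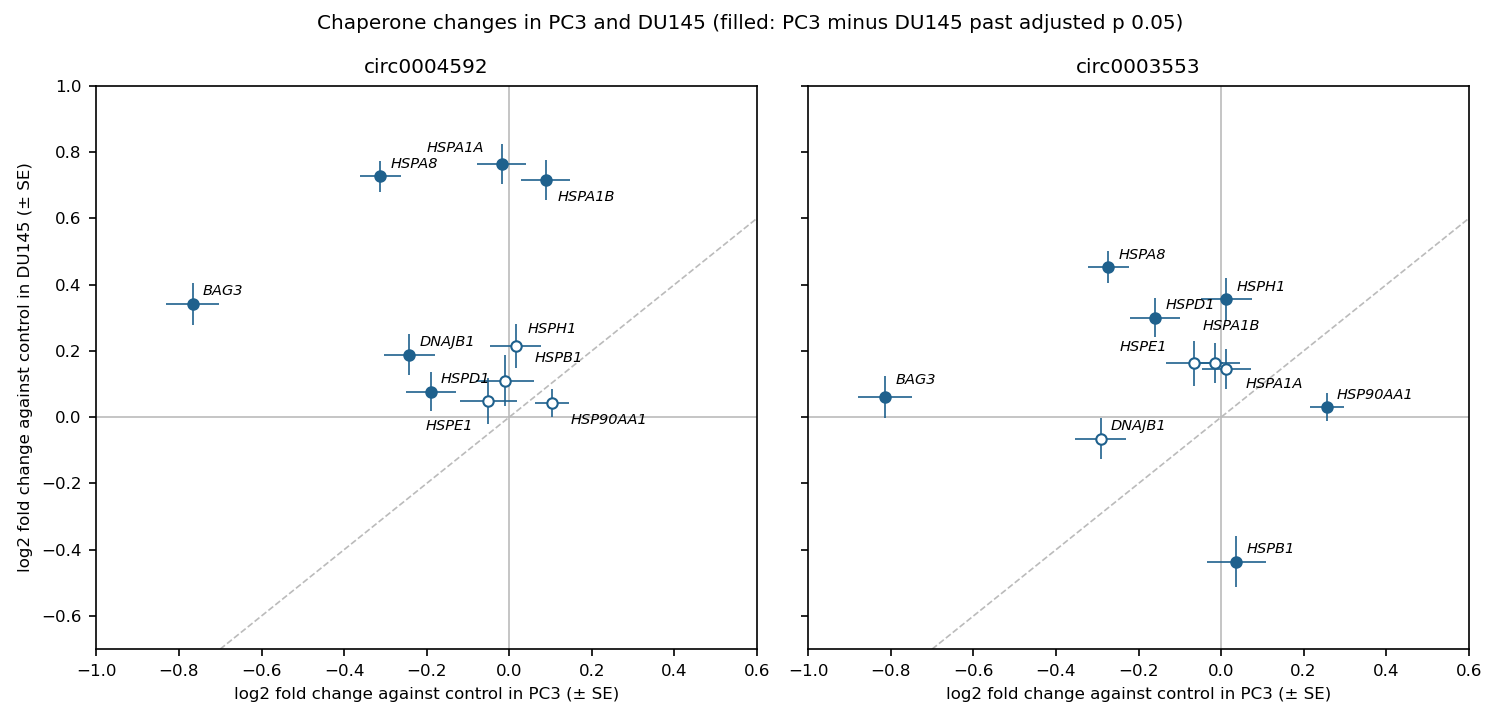
Log2 fold change against control in PC3 (horizontal) and in DU145 (vertical) for the 10 genes, circ0004592 on the left and circ0003553 on the right, with SE bars from edgeR and the line of equal change dashed; filled points passed the test of PC3 minus DU145. BAG3 and HSPA8 lie in the upper left, below control in PC3 and above control in DU145, although the DU145 value of BAG3 with circ0003553 (0.06) did not pass its own test.

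A fit over both lines with each circRNA library paired to the control of its line and arm gave 0 of 10 genes for either circRNA with edgeR, and 0 members at an unadjusted p of 0.05. The fit gave 0% of all 17869 genes, with 548 genes (circ0004592) and 506 genes (circ0003553) at an unadjusted p under 0.05. It holds 1 effect per circRNA for both lines, so a response that differs between the lines counts as error. Of 10 interferon-stimulated genes, 0 passed in this fit, at median log2 fold changes of 3.55 (circ0004592) and 3.60 (circ0003553). The fit thus cannot decide whether a member changed in 1 line only. DESeq2 called 13 and 11 of all genes. With the libraries of both circRNAs taken as 1 group in each line, which counts the spread between circRNAs as error, 3 of the 10 genes passed in PC3, all 3 lower, where 20.4% of all genes passed, 9.19% lower and 11.2% higher. These were BAG3 (-0.79 ± 0.09, adjusted p = 7.96e-06), HSPA8 (-0.29 ± 0.09, adjusted p = 0.0319) and DNAJB1 (-0.27 ± 0.09, adjusted p = 0.0440). Without the RCAN3-arm control of PC3 the adjusted p of HSPA8 was 0.147 and that of DNAJB1 0.116, and without the STK3-arm control 0.120 and 0.185. That of DNAJB1 was also 0.0544 and 0.0546 without the RCAN3-arm and STK3-arm control of DU145. In the same kind of fit, 1 of the 10 passed in DU145, HSPA8 (0.60 ± 0.09, adjusted p = 0.00368), higher with the circRNAs, where 1.05% of all genes passed, 0.532% higher and 0.515% lower. Its adjusted p was 0.128 without the RCAN3-arm control of DU145 and 0.0899 without the STK3-arm control, and 0.0570 with limma on RPKM.

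The circRNAs were also compared with each other as circ0004592 minus circ0003553, 1 library against 1 with the spread taken from the controls. Each circRNA was in 1 arm only, so a difference between circRNAs and one between arms cannot be told apart here. The controls of both arms differed by at most 0.13 on the log2 scale in DU145 among the 10 genes. In PC3, 0 of the 10 genes differed with edgeR (lowest adjusted p = 0.384; 1 gene, HSP90AA1, at an unadjusted p under 0.05), beside 0.0672% of all genes, 0.056% higher and 0.0112% lower. In DU145, 7 of the 10 differed, beside 13.4% of all genes. Higher with circ0004592 were HSPA1A (0.62 ± 0.07), HSPA1B (0.55 ± 0.07), HSPB1 (0.55 ± 0.09), BAG3 (0.28 ± 0.07), HSPA8 (0.27 ± 0.06) and DNAJB1 (0.25 ± 0.07), 6 genes where 7.93% of all genes were higher. HSPA1A and HSPA1B may not be separate observations here either. HSPD1 was lower with circ0004592 (-0.22 ± 0.07, adjusted p = 0.0388), as were 5.47% of all genes, but did not pass with DESeq2 (adjusted p = 0.0776) or with its size factors in edgeR (adjusted p = 0.0523). With limma on RPKM, 0 of the 7 passed. The DU145 circRNA libraries stood further apart over all genes than the PC3 ones, at 14.3 against 4.08 chi-square units per gene, and the part of this distance in the differences of the 7 genes was not tested. These units come from totals without TMM scaling and grow with depth. With circ0004592 and circ0003553, the DU145 libraries held 33739149 and 49926342 counts (TMM factors 0.976 and 1.03). The PC3 libraries held 33444940 and 33608681 counts (TMM factors 0.985 and 0.971).

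The lines also differed in their starting levels. With the control plasmid, 8 of the 10 genes were higher in PC3 than in DU145 and 1 was lower, where 82.5% of all genes differed, 41.6% higher and 40.9% lower. The 8 include both HSPA1A and HSPA1B, which may not be separate observations. BAG3 was 2.40-fold higher in PC3 (log2 1.26 ± 0.05), HSPA1B 2.31-fold, HSPH1 2.10-fold, HSPA1A 1.92-fold and HSPB1 1.87-fold. DNAJB1 (1.54-fold), HSPE1 (1.37-fold) and HSPD1 (1.15-fold) were higher by less. HSP90AA1 was the one gene lower in PC3, at 0.707 of DU145, and HSPA8 did not pass (log2 0.08, adjusted p = 0.0704). In edgeR without the filter HSPA8 passed (log2 0.13, adjusted p = 0.00818). BAG3 in the circRNA libraries of PC3, at 232 and 225 CPM, was still above the DU145 libraries, at 159.6 to 209 CPM. HSPA1A in DU145 with circ0004592, at 117 CPM, was still below every PC3 library, the lowest of which had 130.3 CPM.

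Levels of different genes were compared per length, as RPKM (reads scaled to gene length and library size). In the PC3 controls HSP90AA1 was highest at 948 and 958 RPKM, followed by HSPA8 at 169.7 and 169 RPKM and BAG3 at 152 and 139 RPKM. HSPA1B (88.9 and 83.3 RPKM), HSPD1 (63.0 and 66.6 RPKM) and HSPE1 (55.1 and 58.7 RPKM) came next. HSPA1A (54.1 and 53.1 RPKM) and DNAJB1 (52.6 and 54.7 RPKM) overlapped and were followed by HSPB1 (39.1 and 38.0 RPKM) and HSPH1 (13.9 and 14.7 RPKM). In the DU145 controls the order began with HSP90AA1 (1374 and 1313 RPKM), HSPA8 (157 and 163 RPKM), BAG3 (58.6 and 62.0 RPKM) and HSPD1 (54.3 and 58.4 RPKM). It ended with HSPA1A (27.9 and 27.8 RPKM), HSPB1 (21.0 and 20.1 RPKM) and HSPH1 (6.83 and 6.71 RPKM). Both circRNA libraries of PC3 had BAG3 below HSPA1B, at 83.1 against 89.2 RPKM with circ0004592 and 79.3 against 82.0 RPKM with circ0003553, the reverse of both controls. The values of HSPA1A, HSPA1B and HSPE1 alone are uncertain, as given above, and so are their places in these orders.

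The wider chaperone network was described with lists of related genes. Over all tested genes, 13.2% rose and 11.7% fell in PC3 with circ0004592, 15.6% rose and 12.6% fell in PC3 with circ0003553, 5.24% rose and 4.65% fell in DU145 with circ0004592, and 4.24% rose and 6.3% fell in DU145 with circ0003553. Among 12 other cytosolic J-domain genes, 5 rose and 0 fell in PC3 with circ0004592 (median log2 fold change 0.17), and 6 rose and 0 fell with circ0003553 (0.18). The first was DNAJA1, a type I HSP40, with 917 and 999 CPM in PC3 with circ0004592 and circ0003553, against 451 and 445 CPM in the controls (log2 1.03 ± 0.05, adjusted p = 2.47e-12, and 1.16 ± 0.05, adjusted p = 3.67e-13). DNAJB4 rose by 0.80 and 0.82 in the same libraries. DNAJA1 and DNAJB4 thus moved opposite to their relative DNAJB1 in PC3. In DU145, 1 of the 12 rose with circ0004592 (DNAJA1, 0.22) and 1 fell with circ0003553 (DNAJB5, -0.29). Of 8 tested HSP70 and HSP110 relatives, HSPA4 rose (0.22 with circ0004592 and 0.31 with circ0003553) and HSPA4L fell (-0.35 and -0.30) in PC3, and HSPA2 rose in DU145 with circ0004592 (0.42).

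Among 8 other HSP70 co-factors, 1 rose and 1 fell in PC3 with circ0004592, and 2 rose and 1 fell with circ0003553. BAG1, a relative of BAG3, rose there by 0.36 with circ0004592 and 0.35 with circ0003553, and STUB1, the ubiquitin ligase CHIP, fell (-0.31 and -0.35). In DU145, BAG6 rose with circ0004592 (0.34) and STUB1 fell with circ0003553 (-0.24). Of 12 genes for other HSP90s and HSP90 co-chaperones, 7 rose and 1 fell in DU145 with circ0004592, where 5.24% of all genes rose and 4.65% fell, led by NUDC (0.39), AHSA2 (-0.34), FKBP4 (0.34) and PPP5C (0.26), and 1 rose and 3 fell there with circ0003553, CDC37 among them (-0.28). In PC3, 5 rose and 1 fell with circ0004592 and 4 rose and 1 fell with circ0003553, where 24.8% and 28.2% of all genes passed in either direction. FKBP5 rose (0.40 and 0.63) and FKBP4 fell (-0.34 and -0.25) in PC3 with circ0004592 and circ0003553. Of 6 other small heat shock protein genes in the tables, 1 was tested and did not pass in any of these 4 comparisons.

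Of 14 genes of the cytosolic chaperonin TRiC and prefoldin, 3 rose and 0 fell in PC3 with circ0004592, 3 rose and 1 fell in PC3 with circ0003553, 3 rose and 0 fell in DU145 with circ0004592, and 5 rose and 1 fell in DU145 with circ0003553. In PC3 these shares lie near those over all genes, 24.8% with circ0004592 and 28.2% with circ0003553, and in DU145 9.89% and 10.5% of all genes passed. CCT4 rose in PC3 (0.30 with circ0004592 and 0.35 with circ0003553), and PFDN1 rose in DU145 with circ0003553 (0.45). Of 13 other mitochondrial chaperones and proteases, HSPA9 (mortalin, the mitochondrial HSP70) fell in PC3 with circ0004592 (-0.23) and circ0003553 (-0.24) and in DU145 with circ0004592 (-0.31), while HSPD1 and HSPE1 did not pass in that last comparison. The list had 1 riser and 2 fallers in PC3 with circ0004592, 3 and 1 with circ0003553, 2 and 2 in DU145 with circ0004592, and 0 and 2 with circ0003553. Among 18 genes of the endoplasmic reticulum and the unfolded protein response, 6 rose and 2 fell in PC3 with circ0004592, and 4 rose and 4 fell with circ0003553, beside the same 24.8% and 28.2% of all genes. XBP1, a transcription factor of that response, rose in PC3 (0.73 and 0.92), and the reticulum's HSP70, HSPA5, fell in PC3 with circ0003553 (-0.30). In DU145, 0 of the 18 rose and 1 fell with circ0004592 (HSP90B1, -0.28), and 0 rose and 5 fell with circ0003553, where 4.65% and 6.3% of all genes fell.

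**Figure D4:**
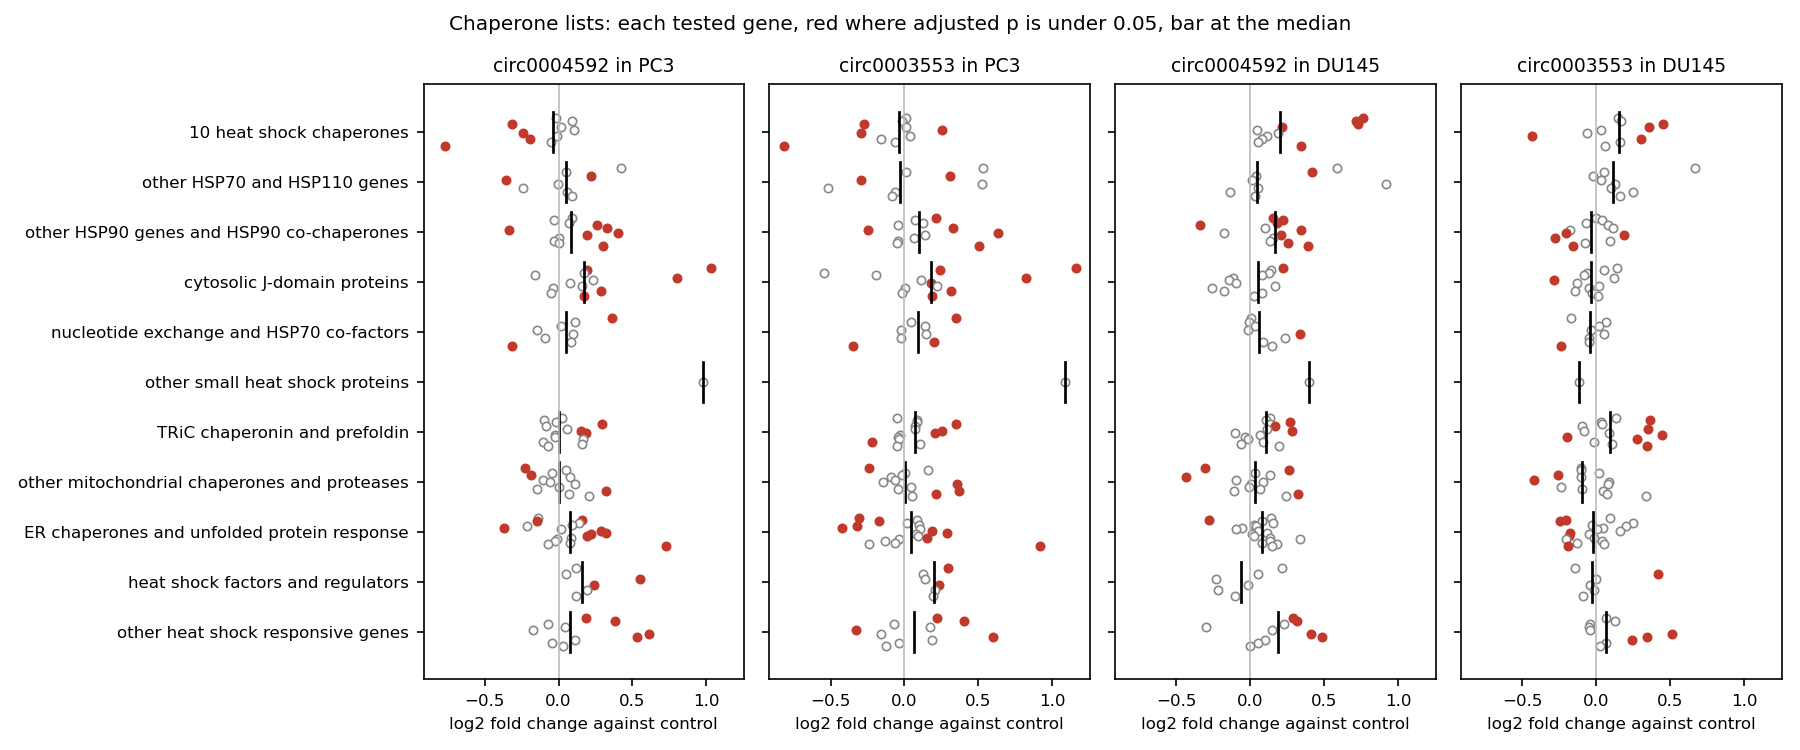
Log2 fold change against control of every tested gene of each list, 1 panel per line and circRNA, with red points for an adjusted p under 0.05, open points for the others and a bar at the list's median. The cytosolic J-domain genes in PC3 hold 5 (circ0004592) and 6 (circ0003553) red points, all right of 0, while the 10 heat shock chaperones fall on both sides of 0.

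Among the heat shock factors themselves, HSF1 had a log2 fold change of 0.12 (adjusted p = 0.283) with circ0004592 and rose by 0.29 (adjusted p = 0.00489) with circ0003553 in PC3. In DU145 the values were 0.21 (adjusted p = 0.102) with circ0004592 and -0.14 (adjusted p = 0.268) with circ0003553. HSF2 rose in DU145 with circ0003553 (0.42, adjusted p = 0.0278), and HSF4 rose in PC3 with circ0004592 (0.55, adjusted p = 0.0196). Of 6 heat shock factors and regulators, 2 rose in PC3 with each circRNA, where 13.2% (circ0004592) and 15.6% (circ0003553) of all genes rose. In DU145, 0 of the 6 passed with circ0004592 and 1 rose with circ0003553, where 5.24% and 4.24% of all genes rose. Of 10 other heat shock responsive genes, 4 rose in PC3 with circ0004592 (13.2% of all genes), 3 rose and 1 fell with circ0003553 (15.6% and 12.6%), 4 rose in DU145 with circ0004592 (5.24%) and 3 with circ0003553 (4.24%). SQSTM1, the autophagy receptor p62, rose by 0.53 and 0.60 in PC3 and by 0.49 and 0.34 in DU145 with circ0004592 and circ0003553. In the same PC3 libraries all 10 interferon-stimulated genes listed rose, beside 13.2% and 15.6% of all genes. Their median log2 fold changes in PC3 were 6.27 with circ0004592 and 6.32 with circ0003553. In DU145, 5 of 10 (median 0.42) and 7 of 10 (median 0.54) rose, beside 5.24% and 4.24% of all genes. The part of the interferon response in the values of the chaperone genes was not tested.

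The genes whose levels followed a member most closely were found from the mean absolute difference of log2 CPM, centred within each line, over the 8 libraries, among 7407 genes with a mean of at least 20 CPM. For HSPA8 these were IL6R, at 0.0460, ETV4, ZNF185, VIM-AS1 and SMTN, at 0.0724 to 0.0757. IL6R had 12.9 and 14.5 CPM in PC3 with circ0004592 and circ0003553, against 16.3 and 16.3 CPM in the controls, and 39.4 and 34.9 CPM in DU145, against 25.9 and 26.6 CPM in the controls. For HSPD1 they were TNPO1, the mitochondrial transfer RNA genes MT-TY, MT-TN and MT-TC, and SMURF2, at 0.0231 to 0.0309. These distances are a description over 8 libraries that share lines, arms and controls. They are not scaled to how much a member changed, so those of HSPA8 and HSPD1 cannot be set against each other.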

How the data were processed

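Per the labels' protocols, total RNA was depleted of ribosomal RNA, made into stranded libraries with 8-base molecular identifiers and sequenced in pairs of 150 bases. Per the submitters' processing notes, the authors used Trimmomatic 0.36, featureCounts of Subread 1.5.1, edgeR 3.12.1 and hg38. The aligner, the strand setting of the counting and any use of the identifiers are not given in the sources used here. The authors deposited raw counts per gene and, from these, RPKM, in 1 pair of tables per arm. The deposited RPKM equals counts scaled to gene length and column total (largest difference 4.73e-11). Genes in 1 count table alone (5511 of 36779, largest count 14) were set to 0 in the other.

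Counts of both arms were joined and tested with edgeR 4.0.16 (R 4.3.3), TMM factors, a minimum of 1 CPM in 2 libraries, a prior count of 2, and Benjamini-Hochberg adjustment over 17869 genes. The 6 groups of line and plasmid, with both controls of a line as 1 group, left 2 residual degrees of freedom, all from the controls, and a circRNA library was assumed to vary as they do. Other fits used 4 groups of line and circRNA (4 residual degrees of freedom) or blocks of line and arm (2). CPM uses TMM-scaled totals. SE is the log2 fold change over the square root of F. The scripts were tested on simulated data. Alternatives were DESeq2 1.42.0, its size factors in edgeR, no filter, limma 3.58.1 on log2(RPKM + 0.1), HSPA1A and HSPA1B summed, and each control library left out. Shared windows come from GENCODE v29, exon overlaps from the gene coordinates deposited with the counts, and start windows from RefSeq (GRCh38.p14). The named genes were the 10 members, the heat shock factors, the host genes and, of each list, up to 4 genes past the threshold by size of change in each comparison. The members, lists and tests were chosen with earlier results of these data known.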

Additional observations from a re-analysis of the deposited data

Results flagged for a closer look

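The effect of a circRNA differed between PC3 and DU145 for 12 pairs of gene and circRNA, by edgeR's test of the log2 fold change in PC3 minus that in DU145. With circ0004592 the differences were -1.11 for BAG3 (adjusted p = 2.34e-08), -1.04 for HSPA8 (adjusted p = 1.52e-09), -0.78 for HSPA1A (adjusted p = 1.36e-06), -0.63 for HSPA1B (adjusted p = 1.97e-05), -0.43 for DNAJB1 (adjusted p = 0.00141) and -0.27 for HSPD1 (adjusted p = 0.0334). With circ0003553 they were -0.88 for BAG3 (adjusted p = 5.48e-07), -0.73 for HSPA8 (adjusted p = 2.32e-07), -0.46 for HSPD1 (adjusted p = 0.000523), 0.47 for HSPB1 (adjusted p = 0.00249), -0.34 for HSPH1 (adjusted p = 0.00876) and 0.23 for HSP90AA1 (adjusted p = 0.00883). With limma on RPKM, 4 of the 12 no longer passed: DNAJB1 (adjusted p = 0.0629) and HSPD1 (adjusted p = 0.154) with circ0004592, and HSPH1 (adjusted p = 0.0523) and HSP90AA1 (adjusted p = 0.347) with circ0003553. HSPH1 was also lost with DESeq2 (adjusted p = 0.0522). HSPA1A and HSPA1B are largely identical in sequence, so their values may not be separate observations. Each circRNA effect rests on 1 library per line.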

How the results depend on the processing

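Over 130 fold changes of the 10 genes and 1157 values under the alternatives, 1089 stayed on the same side of the threshold (values that did not pass could change sign), 42 lost their call, 26 gained one and 0 of the calls changed sign. With limma on RPKM, 24 calls were lost: the members called were 0 in DU145 with circ0003553, 0 with circ0004592, 0 in the comparison of circ0004592 with circ0003553 in DU145, 0 in DU145 with both circRNAs as 1 group, and 2 in PC3 with circ0004592. The other 5 calls lost with limma were HSP90AA1 in PC3 with circ0003553 (adjusted p = 0.0883) and, for PC3 minus DU145, HSP90AA1 (0.347) and HSPH1 (0.0523) with circ0003553 and DNAJB1 (0.0629) and HSPD1 (0.154) with circ0004592. In the first 3 of these limma called 0 of all 17869 genes (3447, 3879 and 4152 at an unadjusted p under 0.05), so the DU145 calls rest on the count model, and the cause was not tested. With both circRNAs as 1 group in DU145, DESeq2 called 4 members and edgeR without the filter 3, against 1. Of all genes in each of these fits, 1.57% and 1.03% were called, against 1.05%. The 4 and 3 members include HSPA1A and HSPA1B, which may not be separate observations.

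Each control library was also left out in turn, which leaves 1 control library in its line. The calls of members that changed by this are given with the genes above. The share of all genes called moved with these omissions as well, so no counts of members are given for these fits. No paired analysis was possible by replicate number because the titles give none; the block of line and arm is in the report. Depth limits none of the 10 genes, since each had at least 1186 counts, and the limit is the single circRNA library per line.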
